A study of Homo sapiens with 7 samples.

Results

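LSD1 (gene KDM1A) is a histone demethylase that takes methyl groups off histone H3 and works in a corepressor complex with CoREST proteins and histone deacetylases. The RNA levels of 10 genes whose products bring this complex to DNA are described here: the SNAG-domain zinc fingers GFI1, GFI1B, SNAI1 and SNAI2, the zinc fingers REST and ZNF217, the CtBP corepressors CTBP1 and CTBP2, and the zinc finger proteins ZMYM2 and ZMYM3. They were chosen by name for this role, 10 of the 57773 genes in the count table, a rule that uses no measured value, although earlier results of these data were known when they were chosen. Of the 10, 9 had enough counts to be tested among 18160 genes, and SNAI2 did not.

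The cells were K562, an established human chronic myelogenous leukemia line of erythroid character, in which every group carried a GFP tag at the C-terminal end of LSD1. Edited line 1 and edited line 2, with 2 libraries each, had 2 alleles of Y391K-LSD1-GFP and 1 allele of wtLSD1-GFP. The parental cells, with 3 libraries, had wtLSD1-GFP alone. Y391K is a gain-of-function substitution, in the words of the study design, with which LSD1 tolerates acetylation of histone H3. Each genotype was thus seen in at most a pair of lines, and differences between a line and the parental cells cannot be told apart from differences between single lines. The labels do not say whether libraries of a group were separate cultures, so the p-values measure only a spread that may be technical.

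LSD1 does not read DNA sequence by itself. A SNAG domain is a short peptide at the start of a zinc finger protein that resembles the tail of histone H3 and docks in the catalytic pocket of LSD1. REST binds the CoREST protein RCOR1, while ZNF217, CtBP proteins and ZMYM proteins copurify with LSD1 and CoREST and link them to other DNA-binding factors. In blood cells GFI1B is known as the SNAG factor of erythroid and megakaryocytic cells and GFI1 as that of myeloid and lymphoid cells, and LSD1 inhibitors displace both from the enzyme.

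Poly-A RNA was sequenced to between 35841302 and 72577827 counts per library. All 16 markers of K562 and erythroid cells were tested, and they summed to 3648 to 9649 CPM in edited libraries and 3456 to 5934 CPM in parental libraries (CPM, counts scaled to a common library size with TMM factors). Lymphoid markers summed to at most 1.92 CPM in edited and 0.879 CPM in parental libraries, with CD8A at 0 in both. KDM1A itself did not pass the test, at 298.9 ± 29.8 CPM in line 1 and 280.9 ± 51.3 CPM in line 2 (SD, n = 2 each), against 288 ± 56.2 CPM in parental cells (SD, n = 3), and line 2 over parental was 0.975-fold with a 95% interval of 0.719 to 1.32. Parental library 3 stood apart, with a Pearson correlation of 0.969 with the rest of its group across genes where the other libraries had 0.981 to 0.986.

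GFI1 and GFI1B are known to bind near their own start sites, so 1 promoter of each is printed, from the RefSeq table on build GRCh38.p14, as the 250 bases that end just before the annotated start. Capitals mark the letters AATC, the core of the sequence that both proteins recognise, or GATT, the same letters on the other strand. The first window is chr9:132978444-132978693 on the plus strand for GFI1B, and the second is chr1:92486926-92487175 on the minus strand for GFI1.
GFI1B: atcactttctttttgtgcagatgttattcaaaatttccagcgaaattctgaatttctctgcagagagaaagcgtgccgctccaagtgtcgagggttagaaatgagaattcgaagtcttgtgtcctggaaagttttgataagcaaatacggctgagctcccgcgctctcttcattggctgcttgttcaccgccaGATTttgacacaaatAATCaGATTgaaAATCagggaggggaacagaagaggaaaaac
GFI1: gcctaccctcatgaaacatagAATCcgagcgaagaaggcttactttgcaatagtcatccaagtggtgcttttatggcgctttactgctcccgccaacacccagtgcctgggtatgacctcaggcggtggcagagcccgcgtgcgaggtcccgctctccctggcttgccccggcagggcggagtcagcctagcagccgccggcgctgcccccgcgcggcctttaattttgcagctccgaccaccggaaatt
The GFI1B window held 4 matches, whose first letters lay 57, 42, 37 and 30 bases before the start, and 7.15% of all 35114 windows of this length held at least 4. The GFI1 window held 1 match, 229 bases before the start, and 64.8% of all windows held at least 1. Of the GFI1 windows not printed, chr1:92483815-92484064 held 1 match, 88 bases before its start, and chr1:92486100-92486349 held 0. A second GFI1B window, chr9:132945281-132945530, held 2 matches, and 35.1% of windows held at least 2. A match describes the window, not binding.

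The comparisons asked whether cells with Y391K-LSD1 expressed these recruiting factors at other levels than cells with wild-type LSD1, for both lines together, for each line, and between the lines. No member passed. With edgeR's quasi-likelihood method, its p-values adjusted by Benjamini-Hochberg over all 18160 genes and read at 0.05, 0 of the 9 tested members were called in edited lines together against parental cells, where 0.182% of all genes were called. Line 1 against parental cells also gave 0 of 9, where 1.75% of all genes were called, as did line 2 against parental cells, with 5.82%. The count was again 0 of 9 between line 2 and line 1, where 6.54% of all genes were called. With shares this small, 0 of 9 is near the background.

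At an unadjusted p under 0.05 the members counted 0 in edited lines together, 1 in line 1 (ZNF217), 0 in line 2 and 1 in line 2 against line 1 (GFI1B), while the shares among all genes were 11.9%, 13.4%, 21.5% and 18.4%. DESeq2's Wald test also called 0 of 9 in each comparison. With no filter on low counts edgeR called 1 member, GFI1B between line 2 and line 1, at 0.61 (log2) with an adjusted p of 0.04999. In the authors' deposited table without shrinkage, 0 of the 9 members with an adjusted p were under 0.05, among 437 of 21213 genes. The median size of the members' log2 fold change, regardless of sign, was 0.20 in edited lines together, 0.11 in line 1, 0.20 in line 2 and 0.15 between the lines, beside 0.25, 0.26, 0.33 and 0.31 over all tested genes.

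The levels ranked the same way at both ends in each group (FPKM as deposited, which divides by transcript length and so allows genes to be compared). CTBP1 was highest, at 21.1 ± 1.55 FPKM in line 1 and 25.5 ± 1.02 FPKM in line 2 (SD, n = 2 each), against 19.5 ± 1.02 FPKM in parental cells (SD, n = 3). REST came second at 15.8 ± 0.659, 15.6 ± 2.04 and 14.8 ± 1.13 FPKM in line 1, line 2 and parental cells. ZNF217, CTBP2, GFI1B, ZMYM2 and ZMYM3 lay between 4.97 and 10.4 FPKM on average, in an order that differed between groups. Each gene's libraries overlapped those of the next in line 2, in the order ZNF217, CTBP2, GFI1B, ZMYM3 and ZMYM2, and likewise in parental cells, in the order ZNF217, CTBP2, ZMYM2, GFI1B and ZMYM3. In line 1 CTBP2 stood clear of ZNF217, and ZNF217 of ZMYM2, GFI1B and ZMYM3, which overlapped. SNAI1 averaged 2.11, 2.31 and 3.43 FPKM, and GFI1 0.654, 0.447 and 0.769 FPKM, in the same 3 groups. SNAI2 was last, listed at 0 in both lines and at 0.0443 ± 0.0365 FPKM in parental cells.

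**Figure D1:**
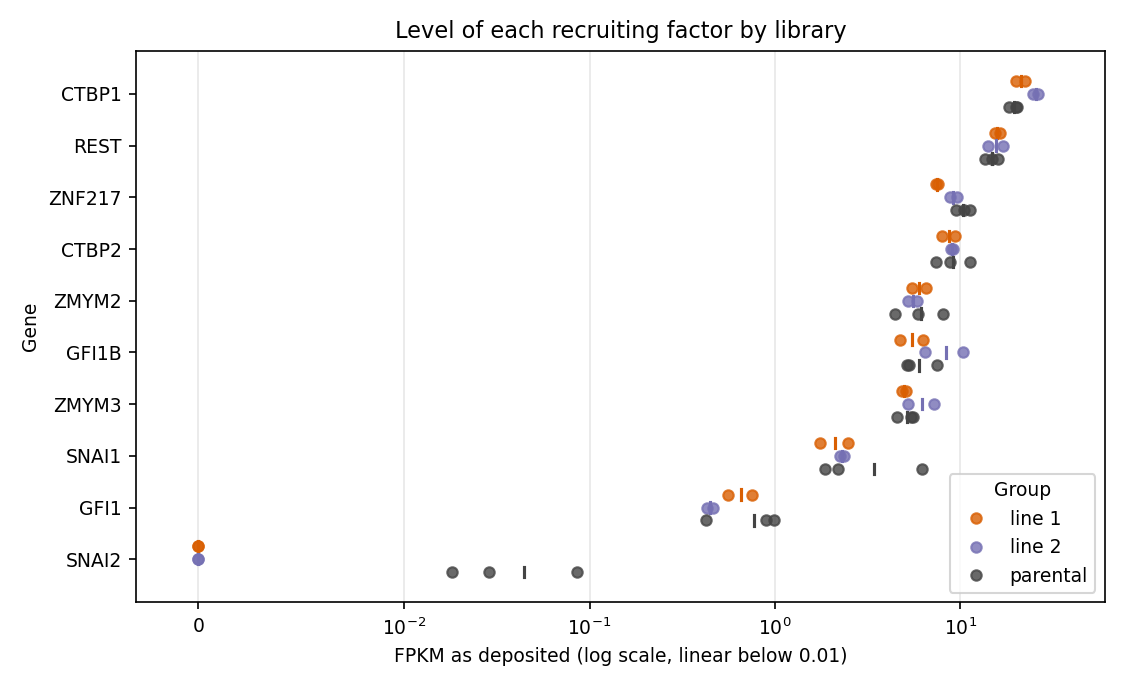
Level of each of the 10 genes in every library, as deposited FPKM on a log axis that is linear below 0.01, for line 1, line 2 and parental cells (points are libraries, short bars are group means). CTBP1 and REST head the order in all 3 groups, GFI1 averages 0.447 to 0.769 FPKM, and SNAI2 is at 0 in the 4 edited libraries.

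GFI1B (ENSG00000165702), the SNAG zinc finger needed for erythroid and megakaryocytic cells, had the largest separation between the lines among the abundant members. Its counts came to 29.6 and 45.1 CPM in line 1 and 47.2 and 66.5 CPM in line 2, against 34.9, 46.7 and 40.0 CPM in parental cells. Both line 2 libraries stood above all line 1 and parental libraries, the lower of them by a narrow margin, and line 1 overlapped the parental cells. The log2 fold change was 0.49 in line 2 against parental cells (SE 0.23, 95% interval -0.02 to 1.00, adjusted p 0.253 in edgeR). Between line 2 and line 1 it was 0.60 (SE 0.25, interval 0.04 to 1.17), where edgeR gave an unadjusted p of 0.0391 and 0.238 after adjustment. Line 1 against parental cells gave -0.12 (interval -0.63 to 0.40).

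Leaving out line 2 library 2, the highest, brought the line 2 value of GFI1B to 0.21. The annotated span of GFI1B overlaps that of TSC1, a gene on the opposite strand. No source used here states the strand setting of the counting, so reads in the overlap cannot be told apart with certainty. TSC1 had a log2 fold change of -0.29 (SE 0.25) in line 2 against parental cells, of opposite sign to that of GFI1B.

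GFI1 (ENSG00000162676), the paralog that acts in myeloid and lymphoid cells, was expressed at a low level. It gave 1.88 and 1.90 CPM in line 1 and 1.07 and 1.15 CPM in line 2, against 3.04, 2.01 and 1.12 CPM in parental cells, from 45 to 112 counts per library. Line 2 lay below line 1 without overlap, and parental library 3 fell among the line 2 values. The log2 fold change was -0.88 in line 2 (SE 0.45, interval -1.90 to 0.14, adjusted p 0.299 in edgeR) and -0.11 in line 1 (SE 0.44). Without parental library 3 the line 2 value was -1.16, and without parental library 1 it was -0.49. The interval for line 2 spans 0.269-fold to 1.10-fold, so a fall by a factor of 2 and no change both lie inside it.

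The ratio of GFI1B to GFI1 in FPKM was 8.44 and 8.42 in line 1 and 15.1 and 22.2 in line 2, against 5.91, 7.60 and 12.2 in parental cells. Both line 2 values exceeded all others, and line 1 lay within the parental range. The ratio was not tested.

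SNAI1 (ENSG00000124216), Snail, a SNAG zinc finger best known for repressing E-cadherin, gave 11.1 and 6.92 CPM in line 1 and 9.41 and 9.01 CPM in line 2, against 9.38, 7.0 and 28.7 CPM in parental cells. The high parental value belonged to library 3 alone, and the other parental libraries lay among the edited ones. The fit gave a log2 fold change of -0.74 in line 1 (SE 0.54) and -0.71 in line 2 (SE 0.54), with adjusted p of 0.621 and 0.503 in edgeR. Without parental library 3 the sign turned, to 0.16 in line 1 and 0.19 in line 2. In that library SNAI1 stood 1.82 above the other parental libraries on the log2 CPM scale, a gap that 5.01% of all tested genes matched in size.

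SNAI2 (ENSG00000019549), Slug, the paralog of SNAI1, had 0 counts in each of the 4 edited libraries, against 4, 4 and 22 counts in parental cells. Parental library 3, where SNAI1 was also highest, held 73.3% of the 30 parental counts. Taking 3 counts over all edited libraries as the floor, the pooled parental level of SNAI2 was 12.0-fold that floor. Without parental library 3, which left 8 parental counts, it was 5.46-fold. The floor covers counting error of the edited libraries only, so these ratios leave out the error of the few parental counts and are not lower bounds. The highest value of SNAI2 was 0.334 CPM, in parental library 3, and with so few counts in the other libraries it was below the filter. With no filter edgeR gave an adjusted p of 0.0938 for edited lines together, 0.175 for line 1 and 0.0636 for line 2. The authors' deposited table without shrinkage gave SNAI2 a p of 0.00288 and no adjusted p.

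**Figure D2:**
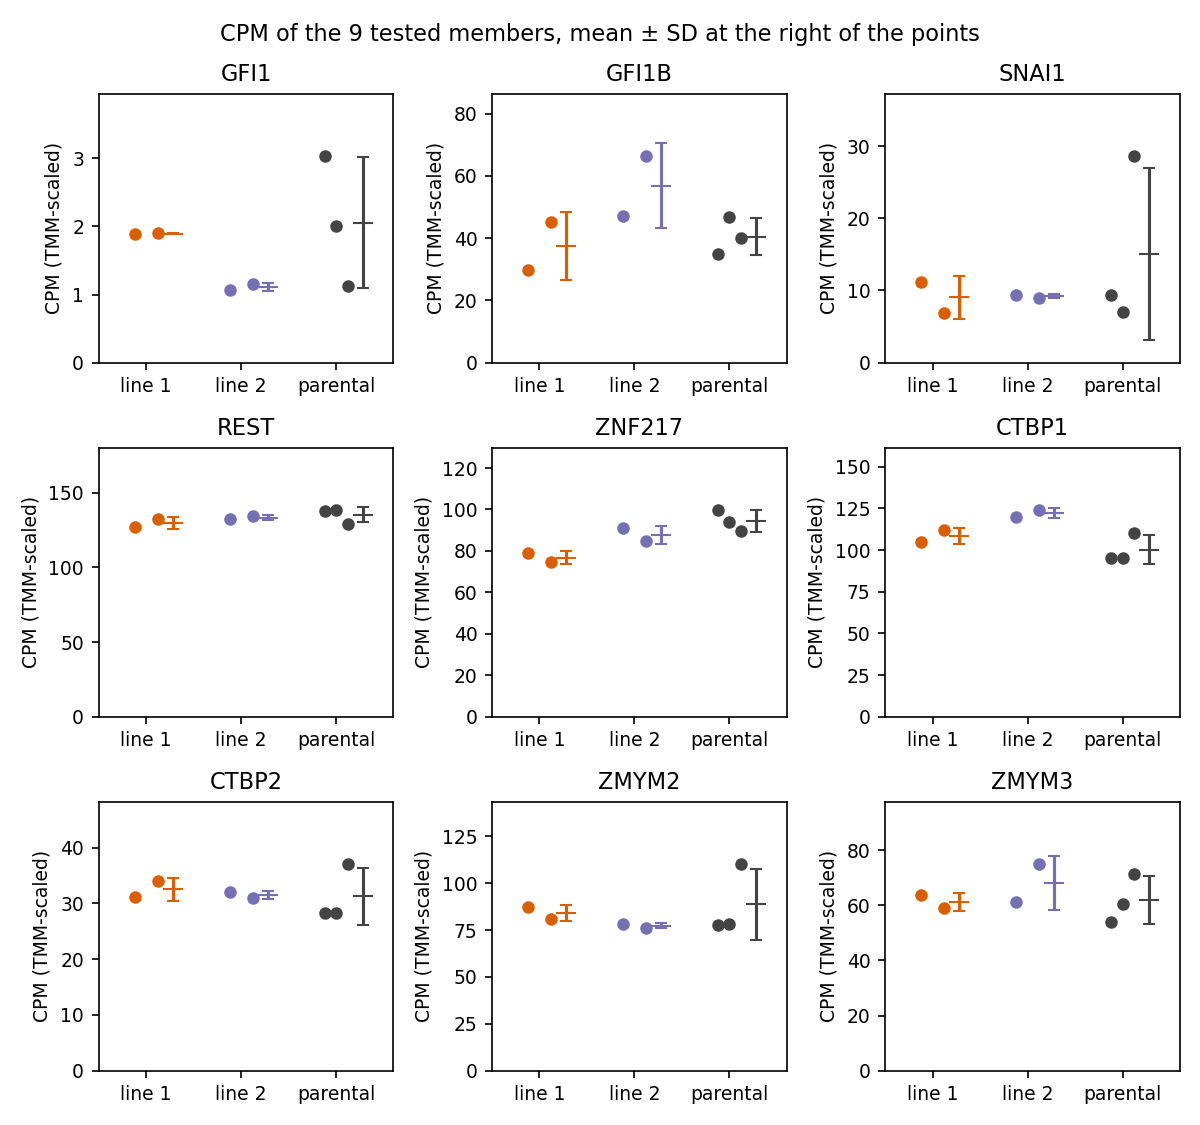
CPM (TMM-scaled) of the 9 tested members in each library of line 1, line 2 and parental cells, with the mean and SD of the group at the right of its points (n = 2, 2 and 3). GFI1B is higher in both line 2 libraries than in any other, and SNAI1 has 1 high library, parental 3, at 28.7 CPM.

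REST (ENSG00000084093), the zinc finger that silences neuronal genes outside the nervous system and binds RCOR1, was among the steadiest members. It gave 127 and 133 CPM in line 1 and 132 and 135 CPM in line 2, against 138, 139 and 129 CPM in parental cells. The groups overlapped, and the log2 fold change was -0.06 in line 1 and -0.02 in line 2, with 95% intervals of -0.33 to 0.21 and -0.30 to 0.25, so that the line 2 interval spans 0.815-fold to 1.19-fold. On the FPKM scale the sign was the other way, with 0.07 in line 2 on log2(FPKM + 1). REST overlaps NOA1 on the opposite strand, which had a log2 fold change of -0.59 in line 2 (SE 0.16, adjusted p 0.0645 in edgeR).

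ZNF217 (ENSG00000171940), a zinc finger oncoprotein that binds CtBP and the LSD1 complex, gave 79.0 and 74.6 CPM in line 1 and 91.0 and 84.8 CPM in line 2, against 99.9, 93.9 and 89.6 CPM in parental cells. Both line 1 libraries lay below all parental libraries, the one tested member whose ranges did not overlap there, where 31.5% of all tested genes had no overlap. In line 1 the log2 fold change was -0.30 (SE 0.13, interval -0.58 to -0.01), where edgeR gave an unadjusted p of 0.0417 and 0.345 after adjustment. Line 2 gave -0.10 (interval -0.39 to 0.18), and line 2 against line 1 gave 0.19 (interval -0.11 to 0.50).

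CTBP1 (ENSG00000159692), a corepressor that docks on short peptide motifs of DNA-binding factors, gave 105 and 112 CPM in line 1 and 120 and 124 CPM in line 2, against 95.2, 95.2 and 110 CPM in parental cells. Line 2 lay above all parental libraries, while line 1 overlapped parental library 3. The log2 fold change was 0.28 in line 2 (SE 0.13, interval -0.01 to 0.58, adjusted p 0.25 in edgeR) and 0.11 in line 1 (SE 0.13). GFI1B and CTBP1 were the 2 of 9 tested members whose ranges did not overlap in line 2 against parental cells, where 39.4% of all tested genes had no overlap.

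CTBP2 (ENSG00000175029), the second CtBP corepressor, gave 31.1 and 34.0 CPM in line 1 and 32.0 and 31.0 CPM in line 2, against 28.3, 28.3 and 37.1 CPM in parental cells. All edited libraries lay inside the parental range. Fitted log2 fold changes were 0.06 in line 1 (interval -0.32 to 0.44) and 0.01 in line 2 (interval -0.37 to 0.39). The ratio of CTBP1 to CTBP2 in FPKM was 2.14 and 2.77 in line 1 and 2.76 and 2.88 in line 2, against 2.08, 2.72 and 1.79 in parental cells. CTBP1 was thus the more abundant paralog in every library. CTBP2 overlaps ZRANB1 and CTBP1 overlaps CTBP1-DT, both on the opposite strand.

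ZMYM2 (ENSG00000121741), a zinc finger protein that copurifies with LSD1 and binds SUMO, gave 87.3 and 81.1 CPM in line 1 and 78.2 and 76.3 CPM in line 2, against 77.6, 78.0 and 110 CPM in parental cells. Parental library 3 was again the highest, and line 2 lay near the other parental libraries. The log2 fold change was -0.08 in line 1 and -0.20 in line 2 (SE 0.18 each), and without parental library 3 it was 0.14 and 0.00369.

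ZMYM3 (ENSG00000147130), its X-linked relative, gave 63.7 and 59.0 CPM in line 1 and 61.1 and 75.2 CPM in line 2, against 53.9, 60.4 and 71.2 CPM in parental cells. The groups overlapped, with log2 fold changes of -0.01 in line 1 (interval -0.38 to 0.35) and 0.14 in line 2 (interval -0.23 to 0.50). The ratio of ZMYM2 to ZMYM3 in FPKM ran from 0.803 to 1.27 in edited libraries, against 0.971 to 1.49 in parental libraries.

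Between the lines, 5 of 9 tested members had ranges that did not overlap, and 51.7% of all tested genes had none. The line 2 libraries of GFI1B, ZNF217 and CTBP1 lay above those of line 1, and those of GFI1 and ZMYM2 lay below. With edited lines together against parental cells, 0 of 9 had no overlap, beside 13.0% of all genes.

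**Figure D3:**
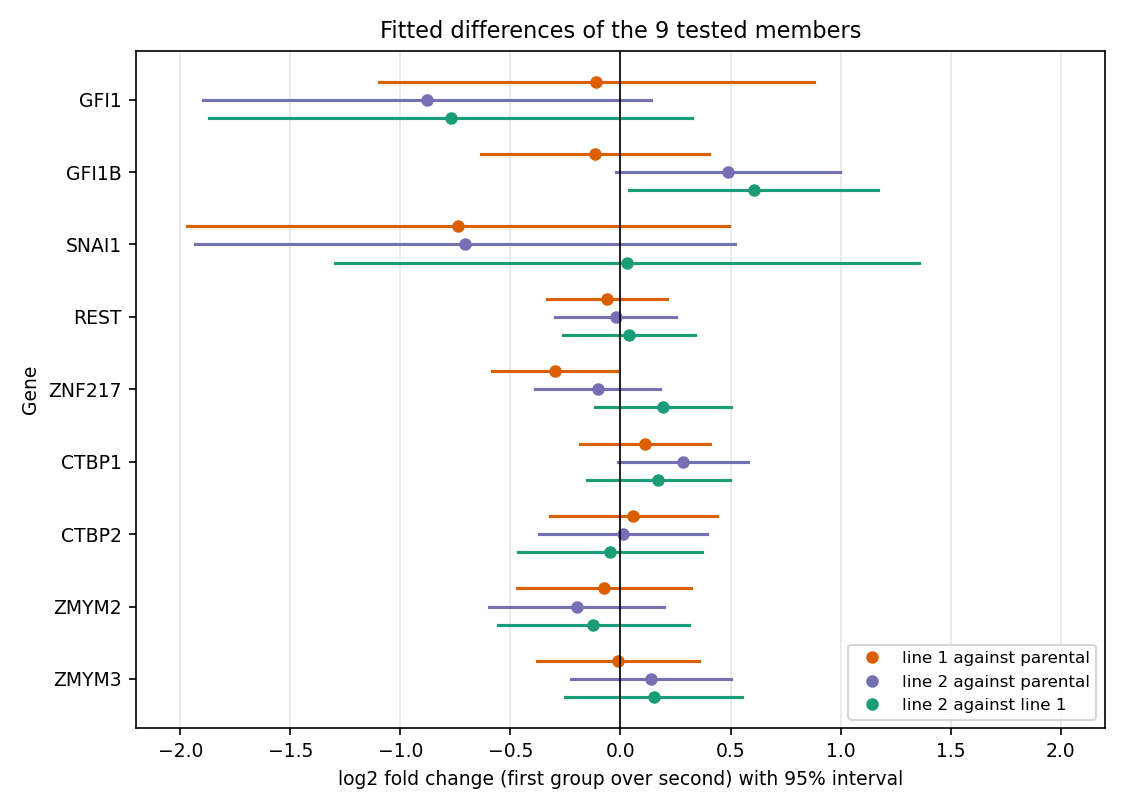
Fitted log2 fold change of each tested member with its 95% interval, for line 1 and line 2 over parental cells and for line 2 over line 1 (each the first group over the second). GFI1B between the lines (0.04 to 1.17) and ZNF217 in line 1 (-0.58 to -0.01) are the intervals that leave out 0, while those of GFI1 and SNAI1 are the widest.

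Around these factors, their partners and known targets were read from 8 lists, which hold 92 tested genes. In edited lines together against parental cells 0 of these were called. In line 1 against parental cells 4 of 92 were called, or 4.35% beside 1.75% of all genes, and in line 2 against parental cells 13 of 92, or 14.1% beside 5.82% of all genes. The lists were chosen with earlier results of these data known, so these shares only describe the listed genes. The median log2 fold change over the 92 was -0.10 in line 1 and -0.13 in line 2, beside -0.01 over all genes in both. A call in one line and not in the other does not show that the lines differ, so the values of both are given. Of the 10 genes of the LSD1-CoREST complex, all tested, 0 were called in line 1 and 1 in line 2, with list medians of -0.003 and -0.14 (log2). The one called was HMG20B, the HMG-box subunit that takes part in erythroid gene control, at 60.3 and 64.3 CPM in line 2 and 92.5 and 88.4 CPM in line 1, against 83.2, 93.9 and 112 CPM in parental cells. Line 2 over parental cells gave a log2 fold change of -0.63 (SE 0.15, adjusted p 0.0486 in edgeR). The call was lost without any 1 of 6 libraries, all but parental library 3, with an adjusted p of up to 0.242. HMG20B gave -0.09 (log2) in line 1 and -0.54 between line 2 and line 1, neither of them called.

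HMG20B lies on the short arm of chromosome 19, where 178 of 565 tested genes were called lower in line 2 against parental cells, or 31.5%, with a median log2 fold change of -0.73 beside -0.01 for all genes. Of the genes named here, SIN3B, WIZ and the marker LYL1 lie on the same arm. Of the 16 K562 and erythroid markers, 1 was called lower and 0 higher in line 2 against parental cells, where 5.82% of all genes were called. The part of the arm in these results was not tested.

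Of 10 other SNAG zinc fingers, 3 were tested (SNAI3, SCRT2 and ZNF516), and SCRT2 was called higher in line 2, with 0 called in line 1. Among all genes 5.82% were called in line 2 and 1.75% in line 1. SCRT2, a relative of Snail known from neurons, had 0 and 1 counts in line 1 and 141 and 113 counts in line 2, against 0, 18 and 8 counts in parental cells. The line 2 libraries, at 1.94 and 2.89 CPM, stood far above all others. The fitted log2 fold change over parental cells was 3.93 (SE 0.85, adjusted p 0.0286 in edgeR), but SCRT2 passed the filter on low counts through the libraries where it was high, and without either line 2 library it was below the filter and not tested. Its call is therefore a description of these libraries. In counts pooled per group over the pooled library size, line 2 exceeded line 1 by a ratio of 176. The exact 95% counting interval was 31.3 to 6982.

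Of 23 other factors known to bind LSD1 or CtBP, 18 were tested, with 0 called in line 1 and 2 in line 2. Among all genes 1.75% and 5.82% were called there, and the list medians were -0.13 and -0.22. ZEB1, a zinc finger repressor that recruits CtBP, gave 17.7 and 19.2 CPM in line 2 and 35.2 and 36.4 CPM in line 1, against 39.1, 38.5 and 43.5 CPM in parental cells. Line 2 was clear of both other groups, at -1.13 (SE 0.15, adjusted p 0.00312 in edgeR), and the call held without each library in turn. ZFPM1, the GATA1 cofactor FOG1, which binds CtBP, was higher in line 2, at 91.2 and 79.9 CPM, with 27.1 and 39.3 CPM in line 1, against 32.5, 49.8 and 26.4 CPM in parental cells. The change was 1.24 (log2, SE 0.26, adjusted p 0.0270 in edgeR), and it missed the threshold without either line 2 library or without parental library 1 (adjusted p up to 0.126).

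The 5 genes of the ZMYM family and its relative QRICH1 were all tested and 0 were called in any comparison, where 0.182% to 6.54% of all genes were called. ZMYM4 and QRICH1, the most abundant, had log2 fold changes of 0.30 (SE 0.15) and 0.20 (SE 0.17) in line 2 against parental cells.

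Of 13 corepressors that work with REST (SIN3, EHMT and associated proteins), all tested, 0 were called in line 1 and 2 in line 2. Among all genes 1.75% and 5.82% were called there, and the list medians were -0.06 and -0.02. SIN3B, a scaffold of the SIN3 deacetylase complex, fell in line 2 to 44.5 and 40.2 CPM, with 84.8 and 76.7 CPM in line 1, against 82.1, 77.6 and 92.0 CPM in parental cells (log2 fold change -0.99, SE 0.14, adjusted p 0.00485 in edgeR), and was lost without line 2 library 2 (adjusted p 0.0720). WIZ, a zinc finger partner of the EHMT methyltransferases, fell in line 2 to 29.1 and 35.9 CPM, with 59.3 and 65.8 CPM in line 1, against 56.4, 51.0 and 56.7 CPM in parental cells. This was -0.75 on the log2 scale (SE 0.15, adjusted p 0.0204 in edgeR), with the call lost without either line 2 library or parental library 1 (adjusted p up to 0.118). Both SIN3B and WIZ are genes of the chromosome 19 short arm.

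Of 26 genes that GFI1 or GFI1B is known to repress, 17 were tested. In line 1, 1 was called higher and 2 lower, and in line 2, 1 higher and 1 lower, where 1.75% and 5.82% of all genes were called, with list medians of -0.18 and -0.23. SOCS3, a feedback inhibitor of cytokine signalling, rose in line 1 to 94.6 and 81.2 CPM, with 29.1 and 27.4 CPM in line 2, against 22.3, 20.9 and 23.1 CPM in parental cells. Its log2 fold change in line 1 was 1.99 (SE 0.14, adjusted p 0.000327 in edgeR), and the call held without each library in turn. LYZ, the lysozyme gene of myeloid cells, fell in line 1 to 4.98 and 3.76 CPM, with 21.5 and 20.1 CPM in line 2, against 23.7, 28.7 and 20.6 CPM in parental cells. The line 1 change was -2.48 (SE 0.23, adjusted p 0.00173 in edgeR), called without each library in turn.

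ITGAM, an integrin chain of myeloid cells, fell in line 1 to 1.88 and 0.791 CPM, with 5.47 and 3.17 CPM in line 2, against 7.59, 9.92 and 7.16 CPM in parental cells (log2 fold change -2.62, SE 0.44, adjusted p 0.0246 in edgeR). It missed the threshold without either line 1 library or without parental library 1 or 2 (adjusted p up to 0.200). Line 2 also lay below all parental libraries, at -0.92 (log2), which missed the threshold. CDKN1A, the cell cycle inhibitor p21, fell in line 2 to 0.509 and 1.15 CPM, with 1.80 and 1.19 CPM in line 1, against 5.80, 3.86 and 12.7 CPM in parental cells. Both lines lay below all parental libraries. The log2 fold change was -3.20 in line 2 (SE 0.62, adjusted p 0.0178 in edgeR), lost without either line 2 library (adjusted p up to 0.106), and -2.32 in line 1 (SE 0.59, adjusted p 0.101). Line 2 against line 1 gave -0.88 and was not called. ID1, an inhibitor of helix-loop-helix factors, rose in line 2 to 16.6 and 24.3 CPM, with 14.1 and 19.1 CPM in line 1, against 8.95, 9.49 and 5.58 CPM in parental cells. Both lines lay above all parental libraries. The difference was 1.35 on the log2 scale in line 2 (SE 0.28, adjusted p 0.0255 in edgeR), lost without either line 2 library or parental library 1 (adjusted p up to 0.266), and 1.05 in line 1 (SE 0.28, adjusted p 0.125). Line 2 against line 1 gave 0.30 and was not called. Of 6 monocyte and granulocyte markers 2 were tested, and the 6 summed to 1.04 to 3.11 CPM in edited libraries and 2.55 to 4.67 CPM in parental libraries, with S100A8 at 0 in both, and their part in these results was not tested.

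Of 21 genes that Snail factors are known to repress, 11 were tested, with 0 called in line 1 and 1 higher and 2 lower in line 2, where 5.82% of all genes were called, and list medians of 0.09 and 0.10. VDR, the vitamin D receptor, fell in line 2 to 0.316 and 0.409 CPM, with 3.61 and 2.94 CPM in line 1, against 3.15, 2.03 and 1.62 CPM in parental cells (log2 fold change -2.65, SE 0.44, adjusted p 0.00927 in edgeR), lost without either line 2 library (adjusted p up to 0.0804). PKP2, a desmosome protein, fell in line 2 to 4.87 and 6.49 CPM, with 14.7 and 13.2 CPM in line 1, against 14.4, 12.9 and 14.2 CPM in parental cells. On the log2 scale this was -1.29 (SE 0.22, adjusted p 0.010 in edgeR), lost without line 2 library 1 (adjusted p 0.0768). Of 20 tested genes beside PKP2 on the chromosome, 5 were called lower in line 2 against parental cells, with a median of -0.43. Beside VDR 0 of 20 were called lower, and the part of these stretches was not tested. KRT8, a keratin of simple epithelia, rose in line 2 to 247 and 494 CPM, with 179 and 286 CPM in line 1, against 156, 145 and 149 CPM in parental cells. Both lines lay above all parental libraries. Fitted changes on the log2 scale were 1.31 in line 2 (SE 0.28, adjusted p 0.0286 in edgeR), lost without line 2 library 2 or parental library 1 or 2 (adjusted p up to 0.307), and 0.63 in line 1 (SE 0.28, adjusted p 0.376). Line 2 against line 1 gave 0.67 and was not called. CDH1, the classic Snail target, was not among the tested genes. The 8 epithelial and stromal markers summed to 70.4 to 129 CPM in edited libraries and 88.9 to 116 CPM in parental libraries, most of it EPCAM, with KRT5 at 0 in both, and their part in these results was not tested.

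Of 36 neuronal genes that REST is known to silence, 15 were tested. In line 1, 0 were called higher and 1 lower, and in line 2, 1 higher and 1 lower, where 1.75% and 5.82% of all genes were called, with list medians of -0.19 and -0.21. SCG3, a secretory granule protein, had 23 and 23 counts in line 1 and 1 and 0 counts in line 2, against 38, 64 and 49 counts in parental cells. In counts pooled per group over the pooled library size, the parental cells exceeded line 2 by a ratio of 107. The exact 95% counting interval was 18.8 to 4237. In edgeR the adjusted p was 0.00302, called without each library in turn. SCG3 passed the filter on low counts through the parental and line 1 libraries, where it was high. Its call is therefore a description of these libraries. Of 20 tested genes beside SCG3, 4 were called lower in line 2 against parental cells, and the part of this stretch was not tested. L1CAM, a neural adhesion molecule, had 3 and 4 counts in line 1 and 45 and 24 counts in line 2, against 25, 113 and 61 counts in parental cells. Its log2 fold change in line 1 was -3.72 (SE 0.70, adjusted p 0.0380 in edgeR), and it missed the threshold in the fits without parental library 2 or any 1 of the 4 edited libraries (adjusted p up to 0.318). L1CAM too passed the filter on low counts through the libraries where it was higher. In line 2 its log2 fold change was -0.98, and between line 2 and line 1 it was 2.74, neither of them called. CALB1, a calcium-binding protein, rose in line 2 to 10.8 and 6.92 CPM, with 6.70 and 3.71 CPM in line 1, against 2.96, 2.33 and 1.17 CPM in parental cells. Both lines lay above all parental libraries. On the log2 scale the change was 2.05 in line 2 (SE 0.43, adjusted p 0.0251 in edgeR), lost without either line 2 library or parental library 2 (adjusted p up to 0.127), and 1.28 in line 1 (SE 0.43, adjusted p 0.222). Line 2 against line 1 gave 0.77 and was not called.

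**Figure D4:**
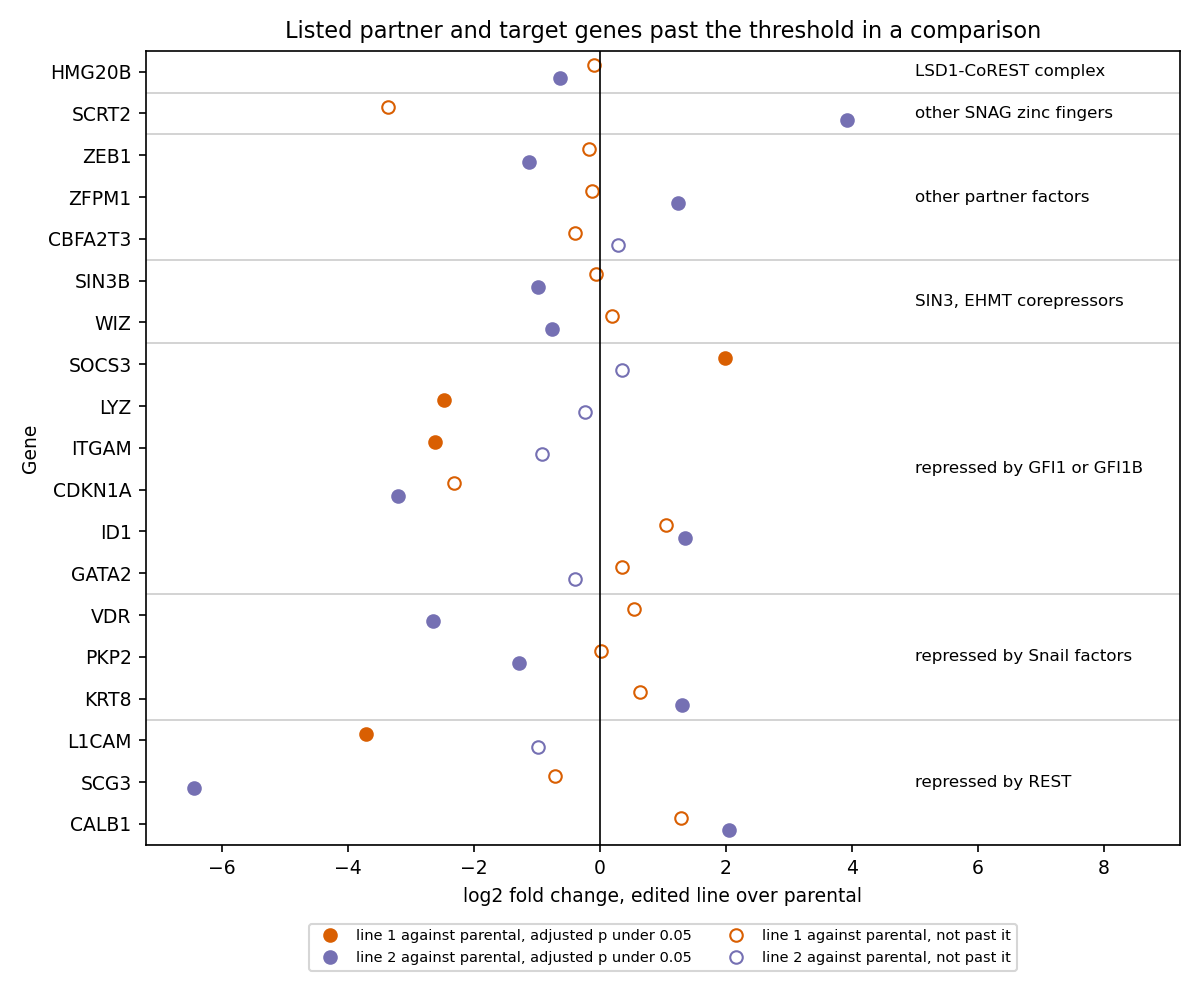
Log2 fold change of each listed partner or target gene that was called in at least 1 comparison, for line 1 and line 2 over parental cells, grouped by list (filled points have an adjusted p under 0.05 in edgeR, open points do not). No gene was called in both lines. HMG20B, CDKN1A, ITGAM, ID1, KRT8, L1CAM and CALB1 have the same sign in both lines and were not called between them. SOCS3 is at 1.99 and LYZ at -2.48 in line 1, and ZEB1 is at -1.13 in line 2. CBFA2T3 and GATA2 were called only between the lines.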

How the data were processed

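Poly-A RNA of 7 K562 libraries was sequenced as paired reads of 150 cycles from stranded TruSeq libraries, per the labels' protocols. The submitters' processing notes name STAR 2.7.3a, Bowtie2 2.5.1, HTSeq 0.11.2, Cufflinks 2.2.1, DESeq2, cutadapt 2.5, FastQC 0.11.8 and MultiQC 1.7 and builds hg19 and GRCh37; the settings are not given in the sources used here. The authors deposited raw counts per gene, normalized counts (a signal scaled per library), FPKM values and comparison tables. Per the file headers, these tables give each gene's log2 fold change, p-value, adjusted p-value and Wald score.

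The raw counts were tested on the whole table with edgeR 4.0.16 in R 4.3.3 (filterByExpr on 2 groups, TMM, glmQLFit and glmQLFTest, Benjamini-Hochberg at 0.05): both lines together in a fit of 2 groups, each line and line 2 against line 1 in a fit of 3. Standard errors are the fold change over the square root of F. FPKM values of repeated identifiers were summed. In CPM, 3 counts were 0.0412 to 0.0814 depending on the library, and such floors and intervals cover counting error only. No pair of libraries agreed within sampling noise (chi-square per degree of freedom 21.2 or more). Gene order and overlaps came from GENCODE on GRCh38, used for position only. Windows for 8 members came from the RefSeq table.

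Named genes were all 10 members, KDM1A and, per list and comparison, up to 4 called genes by smallest p, or else the 2 most abundant; genes most like a called member were to be named, and no member was called. SNAI3, ZNF516, the overlapping genes and CDH1 were named outside this rule. The result of 1 listed gene is not reported here. Members and lists were chosen with earlier results of these data known. Alternatives were DESeq2 1.42.0 size factors and its Wald test, upper quartile scaling, no filter, the replicate number as a block, limma 3.58.1 on log2(FPKM + 1) and log2(FPKM + 0.1) for genes of at least 0.1 FPKM on average, a 3-group contrast and each library left out. The steps were tested on simulated counts in which both edited lines had the same changes and no difference between them. The simulated share for edited lines together therefore does not cover genes that differ between the lines, whose spread the real fit holds. Of 66 genes changed 2-fold, 47% were recovered in edited lines together, 31.8% in line 1 and 36.4% in line 2, each against parental cells. At 8-fold these shares were 98.3%, 91.5% and 89.8%. A missing call therefore does not by itself exclude a 2-fold change. Of all calls 6.62%, 10.7% and 9.77% were false in the same order, each above the share set by the adjusted p threshold. Recovery between the lines was not measured.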

Additional observations from a re-analysis of the deposited data

Results flagged for a closer look

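Of the 92 tested genes in the lists around the recruiting factors, 12 (13.0%, beside 6.54% of all tested genes) differed between line 2 and line 1 in the direct test of the lines (edgeR's quasi-likelihood test, adjusted p under 0.05), which is also the test of whether the lines' differences from the shared parental cells differ. The 9 tested members gave none. As the lists were chosen with earlier results of these data known, the share of 13.0% only describes the listed genes. The gap test for a sample far from its group was run on the 4 edited libraries as 1 group, where none stood out in the members or the named listed genes, and the groups of 2 and 3 libraries are too small for it. Because that group joins both lines, the test can hardly flag a single library in a gene that differs between the lines.

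Higher in line 2 than in line 1 were SCRT2, with a log2 fold change of 7.29 that depends on 1 count in line 1, ZFPM1 at 1.37, CBFA2T3, a corepressor of the ETO family, at 0.69, and LYZ at 2.25. CBFA2T3 gave 209 and 171 CPM in line 2, against 121 and 114 CPM in line 1. Lower in line 2 were ZEB1 at -0.96, SIN3B at -0.93, WIZ at -0.95, SOCS3 at -1.64, GATA2, a blood stem and progenitor cell factor, at -0.75, VDR at -3.18, PKP2 at -1.30 and SCG3 at -5.73, which rests on 1 count in line 2. GATA2 gave 184 and 205 CPM in line 2, against 323 and 332 CPM in line 1.

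For LYZ, SOCS3 and SCG3 the call between the lines held without each library in turn. With SCG3 this is a description of these libraries, since it passed the filter on low counts through those where it was high. VDR was lost without line 2 library 1 (adjusted p 0.0604), SIN3B without line 1 library 1 or line 2 library 2 (up to 0.0831), and PKP2 and WIZ without either line 1 library or line 2 library 1 (up to 0.102 and 0.0866). ZEB1, ZFPM1 and GATA2 were lost without any 1 of the 4 edited libraries (up to 0.0732, 0.208 and 0.114), and CBFA2T3 also without parental library 1 (up to 0.193). SCRT2 was lost without either line 1 library (up to 0.132) and was below the filter, and so not tested, without either line 2 library.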

How the results depend on the processing

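No member was called under DESeq2 size factors, upper quartile scaling, DESeq2's Wald test, either FPKM fit or with any library left out; the scalings moved the median of all genes by at most 0.0105 (log2). With the replicate block, 3 members were called in line 2 against parental cells: GFI1 at -1.17 (adjusted p 0.0364), GFI1B at 0.47 (0.0151) and CTBP1 at 0.36 (0.0282). Between the lines 1 was called with the block, GFI1B at 0.61 (0.00374), and 1 with no filter, GFI1B at 0.61 (0.04999, just under the threshold). Parental 3 has no partner in that block and drops out of it. The numbers were shared by 2 pairs of libraries per comparison, whose deviations had correlations of 0.104, 0.0896 and 0.302, so they were not taken as pairs.

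Values of uncalled members turned sign as follows, and the cause was not tested. With the replicate block, SNAI1 was 0.16 in edited lines together, 0.13 in line 1 and 0.19 in line 2, ZMYM2 was 0.0525 in edited lines together and 0.11 in line 1, and ZMYM3 was 0.11 in line 1. On log2(FPKM + 1), REST was 0.0834 in edited lines together, 0.0958 in line 1, 0.0711 in line 2 and -0.0247 between the lines, CTBP2 was -0.0246 in edited lines together, -0.0518 in line 1 and 0.0545 between the lines, and ZMYM2 was 0.00183 in line 1. On log2(FPKM + 0.1), REST was 0.0883, 0.10, 0.0751 and -0.0264 in the same order, CTBP2 was -0.0254, -0.0555 and 0.0603, and ZMYM2 was 0.00693.

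With each library left out, values that turned sign ran as follows. CTBP2 ran from -0.0343 to 0.20 in edited lines together, -0.0136 to 0.22 in line 1, -0.0554 to 0.17 in line 2 and -0.11 to 0.0259 between the lines. SNAI1 ran from -1.06 to 0.17, -1.13 to 0.16, -1.05 to 0.19 and -0.27 to 0.41. ZMYM2 ran from -0.23 to 0.0710 in edited lines together, -0.17 to 0.14 in line 1 and -0.29 to 0.00369 in line 2. ZMYM3 ran from -0.0264 to 0.20, -0.11 to 0.12, -0.0249 to 0.28 and -0.00833 to 0.29. GFI1 and GFI1B did so in line 1, from -0.39 to 0.27 and from -0.45 to 0.15.

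Called genes among all tested numbered 33, 318, 1057 and 1188 in edited lines together, line 1, line 2 and between the lines. They numbered 234, 1167, 2477 and 2158 with no filter, 427, 857, 1914 and 1851 by DESeq2's Wald test, 7, 2272, 3887 and 3568 with the replicate block, 4, 26, 179 and 167 on log2(FPKM + 1), 8, 56, 309 and 274 on log2(FPKM + 0.1), and 619 for edited lines together as a 3-group contrast. With each library left out they ran from 2 to 32, 44 to 931, 259 to 1848 and 327 to 2344. Of 398 values of called listed genes under alternatives, 111 missed the threshold and the other 287 kept their side of it. SNAI2, at 0 counts in every edited library, is limited by depth.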

Other observations

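The genes beside the members on the chromosome were read for comparison, 10 tested genes on each side in GENCODE order. Around CTBP1 their median log2 fold change in line 2 against parental cells was 0.24, beside 0.28 for CTBP1 itself. Around GFI1B it was 0.21, beside 0.49, and around GFI1 -0.37, beside -0.88. In these 3 stretches 0 neighbours were called in either direction in line 2. Around SNAI1 the neighbours had 0.38 while SNAI1 had -0.71. The part of the surrounding stretch in the members' values was not tested.

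Among the windows of the members not described above, AATC or GATT occurred 4 times in 1 window of ZMYM2 and 3 times in 1 window of CTBP2, which 7.15% and 16.9% of all windows reached.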
